A study of Mus musculus with 4 samples.

Results

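Among basal-layer epidermal cells that had been traced from an active *Ivl* (Involucrin) promoter, those with many *Krt10* transcripts were compared with those with few. The classes were selected on the *Krt10* counts of the same cells. In the 2 libraries of traced (Tom+) cells, a well was kept as a cell when it held at least 2000 unique molecular identifiers (UMIs, 1 per counted transcript) on genes. A kept cell was called *Krt10*-high when at least 3 of every 1000 gene UMIs were *Krt10*, and *Krt10*-low otherwise. Of 192 traced wells, 93 were kept, out of 161 kept cells of the whole series, with 25 *Krt10*-high and 10 *Krt10*-low cells in library 1 and 35 *Krt10*-high and 23 *Krt10*-low cells in library 2. *Krt10* itself was taken out of the fits and of the totals behind the summed levels that follow. It stayed in the totals of single cells and of the cell cycle levels.

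The cells came from dorsal epidermis of female *Ivl-CreERT2*/*R26-tdTomato* mice aged 57 days, in which tamoxifen activates a Cre recombinase driven by the *Ivl* promoter and so switches on the red protein tdTomato for good. All groups, the non-traced (Tom−) cells included, carried both alleles and had received 10 µg of tamoxifen per g of body weight intraperitoneally 2 days earlier. Sorting kept live cells positive for CD49f (integrin alpha 6) and LY6A and negative for CD34, a gate meant for the basal layer between hair follicles, and each sort was captured on a Fluidigm C1 chip of 96 wells. The sorted cells came from 2 mice, and the labels do not say which library came from which mouse. The p-values measure only how the class difference varied between these 2 libraries, with this variation estimated jointly over genes. It may be technical.

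Basal keratinocytes sit on the basement membrane, divide, and contain the keratin pair K5 and K14. As they differentiate they replace this pair with K1 and K10, strengthen their desmosomes, begin to make secreted and lipid-processing proteins of the barrier, and leave the basal layer. *Krt10* is the classical transcript of the first suprabasal layers, but it is also present in part of the cells that still lie in the basal layer. The cut at 3 per 1000 divides a range and does not define cell types.

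*Krt10* chose the classes, and its values are given as a description only. In library 1 the median was 7.49 *Krt10* UMIs per 1000 gene UMIs in *Krt10*-high cells, with a highest value of 29.4, and 0.264 in *Krt10*-low cells. In library 2 the medians were 6.33 and 1.39, with a highest value of 14.8. The 3 cells nearest below the cut had 0.670, 0.834 and 2.73 in library 1 and 2.52, 2.64 and 2.80 in library 2. The nearest above it had 3.23, 4.16 and 4.43 in library 1 and 3.04, 3.27 and 3.28 in library 2. Between 2 and 4 per 1000 lay 2 cells of library 1 and 10 of library 2, so the classes were better separated in library 1.

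The classes did not differ in one direction in their amount of RNA. Median gene UMIs per cell were 3925 in *Krt10*-high and 4425.5 in *Krt10*-low cells of library 1, and 5196 and 3972 in library 2. Gene UMIs per UMI of the ERCC spike-in RNA, which was added in equal amount to each well, had medians of 46.6 and 56.4 in library 1 and 55.5 and 41.7 in library 2, so the class with more RNA per spike-in changed between libraries. After each cell had been thinned at random to 2000 UMIs, the median number of genes with a UMI was 1029 and 998.5 in library 1 and 1017 and 957 in library 2. Summed over cells, the classes held 104907 and 52374 gene UMIs in library 1 and 203740 and 101667 in library 2. No well name was shared between the libraries, and the 2 traced libraries differed by more than counting allows, since their chi-square over 5978 genes was 2.37 times its degrees of freedom.

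The reporter was found in similar shares of both classes, with overlapping intervals. UMIs of tdTomato were found in 48.0% (95% Clopper-Pearson interval 27.8% to 68.7%) of *Krt10*-high and 40.0% (12.2% to 73.8%) of *Krt10*-low cells of library 1, and in 54.3% (36.6% to 71.2%) and 43.5% (23.2% to 65.5%) of library 2. Intervals of this kind cover counting error only. *Ivl* itself, whose promoter drives the Cre, had 5 UMIs, all in *Krt10*-high cells of library 1. *Itga6*, the transcript of the sorted integrin, had 3.36 UMIs per 10000 gene UMIs in *Krt10*-high and 4.97 in *Krt10*-low cells of library 1, and 3.46 and 6.40 in library 2. The log2 fold change of -0.77 did not pass (standard error 0.31, edgeR adjusted p = 0.238). *Ly6a* had 45 UMIs in all and was too sparse to test, and *Cd34* had none, which is the state the gate selects.

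The first question was which genes accompany high *Krt10* in traced cells. UMI counts were summed over the cells of each class within each library and tested with edgeR's quasi-likelihood test with the library in the model, so that each *Krt10*-high sum was compared with the *Krt10*-low sum of the same chip. The test covered 1802 genes, and 80 of them, or 4.44%, passed at an adjusted p of 0.05. Of these, 47 were higher (2.61% of genes tested) and 33 lower (1.83%) in *Krt10*-high cells. The higher genes thus made up 58.8% of calls, and 69.2% of 26 calls when the sums were scaled by their totals alone. All 80 had the same sign in both libraries, which the test itself favours, since it called them on the same sums. Over all genes tested the share with the same sign was 61.4%, and the median log2 fold change was 0.02. In a sum over cells, more cells with a gene and more transcripts per cell cannot be told apart, so shares of cells are given for the main genes. The filter on low counts lets a gene enter through the class in which it is high, so that counts over a gene list are descriptions of the members that could be tested.

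**Figure D1:**
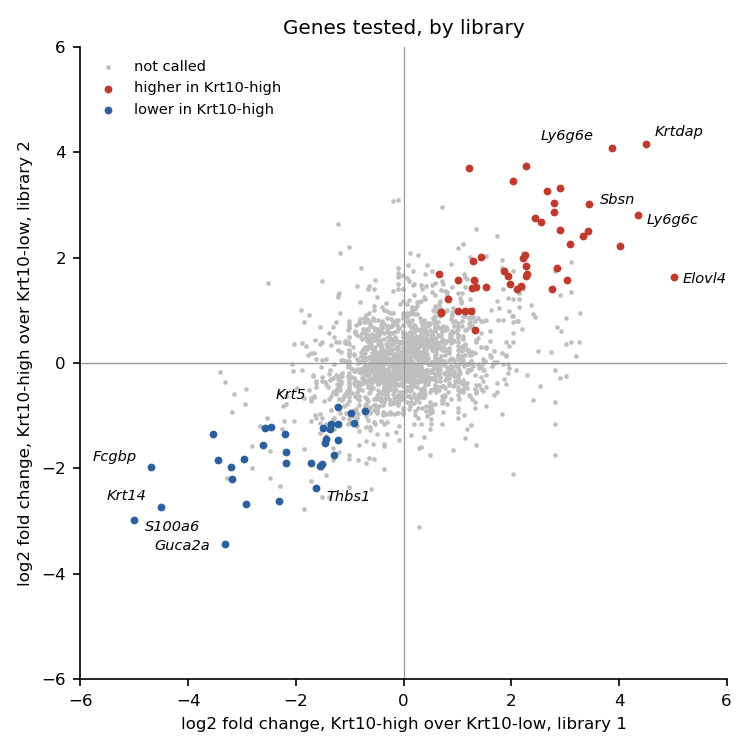
Log2 fold change of *Krt10*-high over *Krt10*-low traced cells in library 1 (horizontal) and library 2 (vertical) for the 1802 genes tested. Each point is 1 gene, with genes past the edgeR threshold in red (47 higher) and blue (33 lower). A small count was added to every gene, which shrinks the fold changes of sparse genes. The called genes lie in the upper right and lower left, which the test that called them favours. *Krtdap* and *Krt14* are among the farthest from the centre.

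Among the genes that rose were 3 that lie side by side on chromosome 7, *Sbsn* (suprabasin), *Dmkn* (dermokine) and *Krtdap* (keratinocyte differentiation-associated protein), which encode small proteins secreted by differentiating keratinocytes. In the RefSeq annotation of GRCm38.p6 they span chr7:30732674-30791089, with gaps of 7.62 kb between *Sbsn* and *Dmkn* and 6.84 kb between *Dmkn* and *Krtdap*. *Krtdap* had 69.8 UMIs per 10000 gene UMIs in *Krt10*-high and 2.87 in *Krt10*-low cells of library 1, and 89.4 and 4.73 in library 2. The *Krt10*-high sums did not overlap the *Krt10*-low sums, and the log2 fold change was 4.34 (standard error 0.21, edgeR adjusted p = 3.6e-07). *Sbsn* had 33.4 and 2.87 UMIs per 10000 in library 1 and 35.7 and 4.14 in library 2. This gave a log2 fold change of 3.24 (standard error 0.23, edgeR adjusted p = 1.17e-05). *Dmkn* was present in nearly every cell of both classes and rose less, from 22 to 56.8 UMIs per 10000 in library 1 and from 21.8 to 60.7 in library 2. The log2 fold change was 1.40 (standard error 0.16, edgeR adjusted p = 0.00049).

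Single cells of the classes overlapped in these genes. For *Krtdap*, *Krt10*-high cells ran from 0 to 241 UMIs per 10000 with a median of 39.1 in library 1, and from 0 to 292 with a median of 74.4 in library 2. *Krt10*-low cells reached 16.8 with a median of 2.52 in library 1 and 25.6 with a median of 3.71 in library 2. A *Krtdap* UMI was seen after thinning in 84.0% (63.9% to 95.5%) of *Krt10*-high and 40.0% (12.2% to 73.8%) of *Krt10*-low cells of library 1, and in 94.3% (80.8% to 99.3%) and 73.9% (51.6% to 89.8%) of library 2. For *Sbsn* the shares were 88.0% and 40.0% in library 1 and 94.3% and 47.8% in library 2.

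Because the 3 neighbours moved together, their RefSeq upstream windows of 250 bases are shown. That of *Mt4*, another strongly raised gene with a neighbourhood of its own described further on, is added. Capitals mark TGAGTCA, the binding motif of AP-1 factors searched on both strands, and TATAAA, the TATA box motif searched on the gene's strand within the last 60 bases. The windows lie at chr7:30751221-30751470 for *Sbsn*, chr7:30763506-30763755 for *Dmkn*, chr7:30787655-30787904 for *Krtdap* and chr8:94136954-94137203 for *Mt4*, all on the plus strand of GRCm38.p6. The *Sbsn* window lies inside the span of that gene (chr7:30732674-30756134), so it is not upstream of the gene's first base. For *Dmkn*, which has 3 windows, 1 with the AP-1 motif is printed.
Sbsn: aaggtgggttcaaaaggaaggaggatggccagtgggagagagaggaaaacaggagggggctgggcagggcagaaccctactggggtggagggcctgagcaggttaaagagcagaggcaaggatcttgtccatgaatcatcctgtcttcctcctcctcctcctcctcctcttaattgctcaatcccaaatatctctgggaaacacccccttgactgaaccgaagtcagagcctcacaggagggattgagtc
Dmkn: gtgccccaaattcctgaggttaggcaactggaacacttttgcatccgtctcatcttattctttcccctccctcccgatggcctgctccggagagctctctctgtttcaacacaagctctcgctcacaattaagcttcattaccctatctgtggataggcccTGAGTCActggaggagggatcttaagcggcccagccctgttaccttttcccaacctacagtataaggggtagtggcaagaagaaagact
Krtdap: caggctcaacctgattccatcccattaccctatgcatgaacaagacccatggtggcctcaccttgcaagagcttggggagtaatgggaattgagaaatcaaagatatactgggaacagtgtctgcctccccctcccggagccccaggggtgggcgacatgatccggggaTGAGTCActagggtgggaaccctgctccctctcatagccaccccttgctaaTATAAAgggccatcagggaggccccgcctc
Mt4: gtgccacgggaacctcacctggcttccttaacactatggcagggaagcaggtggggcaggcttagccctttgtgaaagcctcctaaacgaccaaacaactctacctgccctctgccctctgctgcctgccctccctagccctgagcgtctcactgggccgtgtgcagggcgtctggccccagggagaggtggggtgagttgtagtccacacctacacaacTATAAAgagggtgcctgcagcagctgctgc
TGAGTCA stood in a window of 4 of the 34 higher genes that matched a RefSeq window (11.8%), namely *Dmkn*, *Fam25c*, *Krtdap* and *Psapl1*, and of 3 of the 27 lower genes that matched (11.1%). Of all 27025 genes with a window, 5.16% held it. TATAAA stood in 5 of the 34 higher genes (14.7%), among them *Krtdap*, *Mt4* and *Ly6g6c*, and in 2 of the 27 lower genes (7.41%), against 3.44% of all genes. These are matches of letters in short windows. *Sbsn* holds neither motif in its window, which says nothing of the factors at that gene.

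Genes of suprabasal differentiation moved in 1 direction where they passed. Of 36 genes listed, 23 could be tested and 15 passed, all higher in *Krt10*-high cells, where 2.61% of all genes tested were higher. The median log2 fold change of the 23 was 1.95 against 0.02 over all genes. This list, like the others, was chosen with earlier results of these data known, so these values are a description. *Krt1*, the keratin that pairs with K10, had 44.1 and 6.31 UMIs per 10000 in *Krt10*-high and *Krt10*-low cells of library 1 and 30.1 and 11.0 in library 2. Its log2 fold change was 1.99 (standard error 0.27, edgeR adjusted p = 0.00149), and it differed more in library 1 (2.76) than in library 2 (1.40). After thinning, *Krt1* was seen in 96.0% of *Krt10*-high and 40.0% of *Krt10*-low cells of library 1 and in 100% and 82.6% of library 2. The less abundant keratins *Krt77* (log2 fold change 1.92, edgeR adjusted p = 0.0154) and *Krt78* (3.69, edgeR adjusted p = 0.0352) rose as well. *Krt78* rested on 59 UMIs, of which *Krt10*-low cells held 0.382 per 10000 in library 1 and none in library 2.

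Other members of that list bind calcium, metal or lipid, or sit on the cell surface. *Calm5*, an epidermal calmodulin-like protein, had 26.8 and 4.39 UMIs per 10000 in library 1 and 33.3 and 4.92 in library 2, a log2 fold change of 2.67 (standard error 0.21, edgeR adjusted p = 3.49e-05). Its neighbour *Calm4* on chromosome 13 rose by 2.27 (standard error 0.43, edgeR adjusted p = 0.0131). *Ly6g6c*, a surface protein of the Ly6 family, had 11.3 and 0.382 UMIs per 10000 in library 1 and 12.3 and 1.58 in library 2, a log2 fold change of 3.41 (standard error 0.39, edgeR adjusted p = 0.00049). Next to it on chromosome 17, *Ly6g6e* had 2.40 and 2.77 UMIs per 10000 in *Krt10*-high cells and none in *Krt10*-low cells, at least 13.6-fold higher when 3 UMIs over the *Krt10*-low sums are taken as the limit. *Lypd3*, a further Ly6-type surface protein, *Fabp5*, a fatty acid carrier, and *Perp*, a desmosome-associated membrane protein, rose by 1.76, 2.86 and 1.06, with edgeR adjusted p-values of 0.0177, 0.0141 and 0.00271.

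Not every suprabasal gene passed. *Lgals7*, a galectin of stratified epithelia, had 64.5 and 47.0 UMIs per 10000 in library 1 and 66.5 and 39.2 in library 2 (edgeR adjusted p = 0.0683). *Sfn*, the epithelial 14-3-3 protein, had 38.0 and 52.9 in library 1 and 55.3 and 55.2 in library 2 (edgeR adjusted p = 0.564). *Ptgs1*, the prostaglandin synthase COX-1, was higher in *Krt10*-high cells of both libraries, with 3.46 and 0.764 UMIs per 10000 in library 1 and 2.37 and 0.886 in library 2. A log2 fold change of 1.68 missed the threshold (standard error 0.45, edgeR adjusted p = 0.0688), and it passed in 7 of the 16 alternatives that could test it. After thinning it was seen in 48.0% (27.8% to 68.7%) and 10.0% (0.253% to 44.5%) of *Krt10*-high and *Krt10*-low cells of library 1 and in 31.4% (16.9% to 49.3%) and 8.70% (1.07% to 28.0%) of library 2. *Skint6*, of the Skint family of epidermal surface proteins, was too sparse to test, with 44 UMIs in *Krt10*-high and none in *Krt10*-low cells, at least 7.37-fold higher by the same limit.

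**Figure D2:**
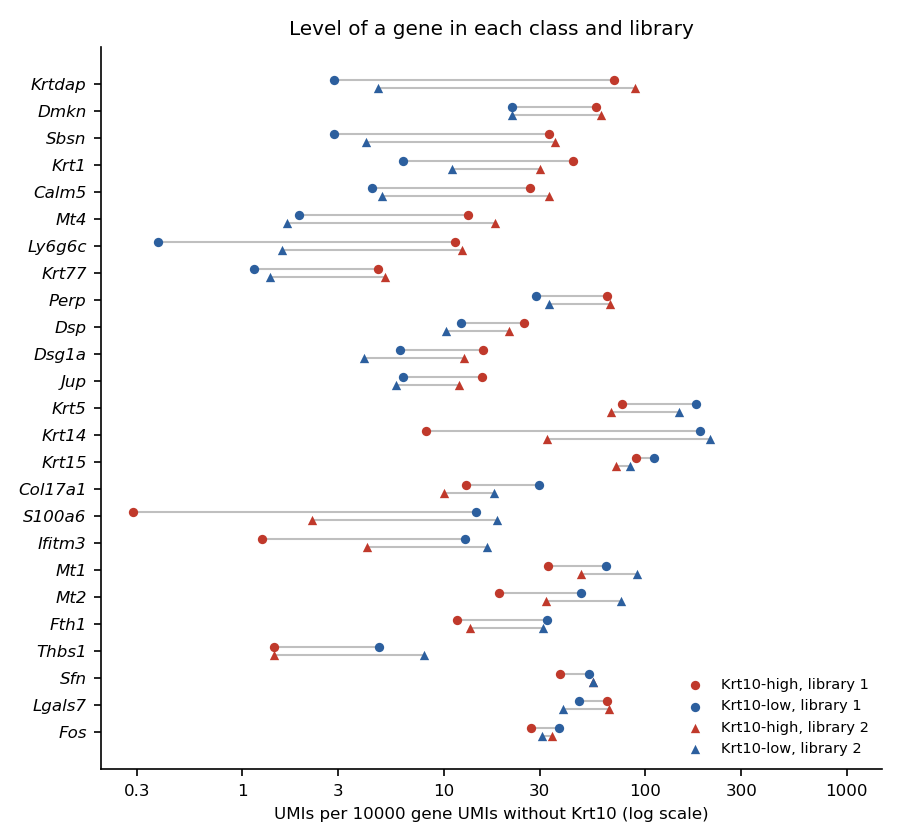
Level of 25 genes, in UMIs per 10000 gene UMIs without *Krt10* on a log scale, in the summed *Krt10*-high (red) and *Krt10*-low (blue) cells of library 1 (circles) and library 2 (triangles), joined by a line within each library. *Krtdap*, *Sbsn* and *Ly6g6c* lie far to the right in *Krt10*-high cells and *Krt14* and *S100a6* far to the left, while *Krt15*, *Sfn* and *Fos* did not pass the test.

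Late products of the cornified layer were nearly absent from both classes. Of 32 listed genes of the cornified envelope and granular layer in the files, 16 had no UMI in any traced cell, and only *Spink5* and *Hopx* could be tested. *Spink5*, an inhibitor of the proteases that shed the outer skin layer, rose by 1.99 (standard error 0.41, edgeR adjusted p = 0.0187). *Lor* (loricrin), the main protein of the finished envelope, had 2 UMIs in all.

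Basal keratins and adhesion genes that passed moved the other way. Of 25 listed genes, 14 could be tested and 5 passed, all lower in *Krt10*-high cells, where 1.83% of all genes tested were lower. Of the 14 log2 fold changes, 13 were negative, with a median of -1.11. *Krt14* had the largest fall of the list. It had 8.17 UMIs per 10000 in *Krt10*-high and 187 in *Krt10*-low cells of library 1, and 32.5 and 211 in library 2. The log2 fold change was -3.53 (standard error 0.32, edgeR adjusted p = 0.000113). The difference was larger in library 1 (-4.50) than in library 2 (-2.72), since *Krt10*-high cells of library 2 kept more *Krt14*. At full depth 10 of 25 *Krt10*-high cells of library 1 had no *Krt14* UMI, but 2 of 35 of library 2. *Krt10*-high cells ranged from 0 to 73.7 UMIs per 10000 with a median of 2.78 in library 1 and from 0 to 173 with a median of 9.42 in library 2. *Krt10*-low cells had medians of 154 and 179.

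Of the other basal keratins, *Krt5* fell and *Krt15* did not pass. *Krt5*, the partner of *Krt14*, had 77.0 and 178 UMIs per 10000 in library 1 and 67.6 and 147 in library 2, and had at least 1 UMI at full depth in every cell of either class. Its log2 fold change was -1.19 (standard error 0.14, edgeR adjusted p = 0.00049). Counts of *Krt14* per count of *Krt5* were 0.106 in *Krt10*-high and 1.05 in *Krt10*-low cells of library 1, and 0.481 and 1.43 in library 2. *Krt15*, a keratin of basal cells, had 89.9 and 110 UMIs per 10000 in library 1 and 71.7 and 84.4 in library 2. Its log2 fold change of -0.29 did not pass (standard error 0.14, edgeR adjusted p = 0.368). The 3 basal keratins thus had log2 fold changes of -3.53, -1.19 and -0.29, although differences between these values were not tested.

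Cells with transcripts of both kinds were common in either class. After thinning, *Krt14* and *Krtdap* were seen together in 10 of 25 *Krt10*-high cells of library 1 and 24 of 35 of library 2, and *Krt14* and *Krt1* in 12 and 26. In *Krt10*-low cells the first pair was seen in 3 of 10 and 17 of 23, and the second in 4 and 19. *Krtdap* without *Krt14* was seen in 11 and 9 *Krt10*-high cells, and in 1 and 0 *Krt10*-low cells. A well can hold more than 1 cell, and no doublet caller was run on these small libraries. Leaving out the deepest 5% of kept wells of each library gave 96 calls in place of 80.

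**Figure D3:**
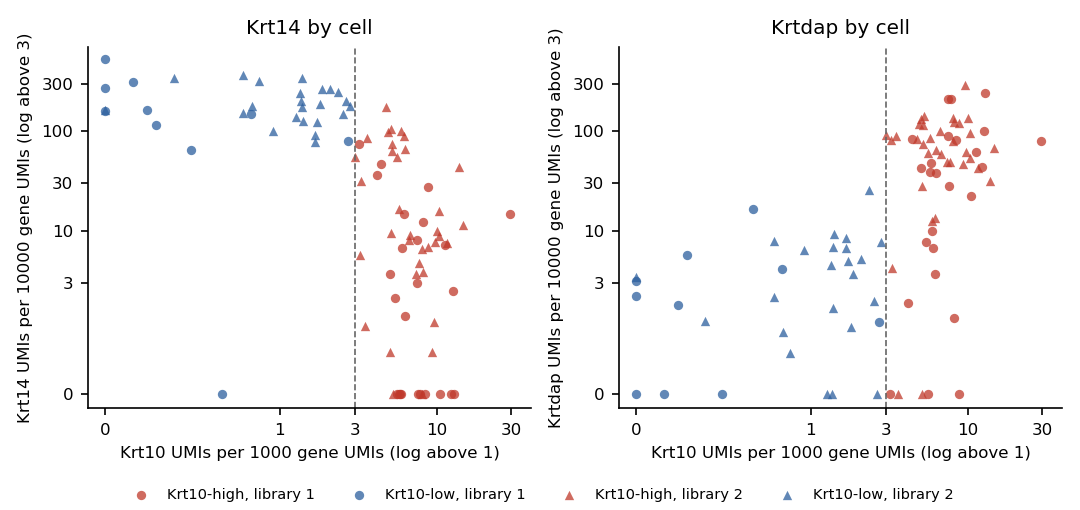
*Krt14* (left) and *Krtdap* (right) in UMIs per 10000 gene UMIs against *Krt10* in UMIs per 1000 gene UMIs, each point 1 of the 93 traced cells, red for *Krt10*-high and blue for *Krt10*-low, with circles for library 1 and triangles for library 2 and the cut at 3 as a dashed line. Axes are linear near 0 and logarithmic above. Most *Krt10*-low cells hold much *Krt14*, and *Krt10*-high cells spread from 0 to 173, whereas *Krtdap* stays at 25.6 or below in *Krt10*-low cells.

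Transcripts of some genes of adhesion to the basement membrane were lower in *Krt10*-high cells. *Col17a1*, a transmembrane collagen of hemidesmosomes, had 12.9 and 29.8 UMIs per 10000 in library 1 and 10.1 and 17.7 in library 2, a log2 fold change of -1.03 (standard error 0.20, edgeR adjusted p = 0.0131). *Itga3*, an integrin subunit that binds laminin, and *Lamb3*, a laminin chain, fell by 3.30 and 2.05 on the log2 scale, with edgeR adjusted p-values of 0.0404 and 0.0389 and only 31 and 56 UMIs. *Itgb4* (log2 fold change -1.39, edgeR adjusted p = 0.0966) and *Itgb1* (-2.06, edgeR adjusted p = 0.12), also integrin subunits, did not pass. *Dst*, the cytoplasmic linker of hemidesmosomes, had a log2 fold change of -0.08. Of all genes tested, 1.83% were lower in *Krt10*-high cells. In the list of matrix proteins and targets of the YAP pathway, 7 could be tested and 2 passed, both lower. These were the secreted matrix proteins *Thbs1* (-2.20, standard error 0.36, edgeR adjusted p = 0.00514) and *Cyr61* (-1.86, standard error 0.36, edgeR adjusted p = 0.0141).

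Several genes of desmosomes, the contacts between keratinocytes, rose. Of 30 genes of desmosomes and other junctions, 18 could be tested and 5 passed, all higher, where 2.61% of all genes tested were higher, and the median log2 fold change was 0.74. *Dsp* (desmoplakin), which ties desmosomes to keratin filaments, had 25.2 and 12.2 UMIs per 10000 in library 1 and 21.2 and 10.3 in library 2, a log2 fold change of 1.01 (standard error 0.19, edgeR adjusted p = 0.0131). *Dsg1a*, a desmosomal cadherin of the upper layers, had 15.7 and 6.11 in library 1 and 12.7 and 4.04 in library 2, a log2 fold change of 1.49 (standard error 0.24, edgeR adjusted p = 0.00495). *Dsc3*, *Jup* (plakoglobin) and *Evpl* (envoplakin) rose by 0.94, 1.13 and 3.35, with edgeR adjusted p-values of 0.0381, 0.0187 and 0.00761. *Pkp1*, a plakophilin with 430 UMIs, had a log2 fold change of 0.48 and did not pass.

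Metallothioneins, small metal-binding proteins encoded in a row on chromosome 8, moved in opposite directions. *Mt4*, the form of stratified epithelia, had 13.2 and 1.91 UMIs per 10000 in *Krt10*-high and *Krt10*-low cells of library 1 and 18.0 and 1.67 in library 2. The log2 fold change was 3.14 (standard error 0.30, edgeR adjusted p = 0.000121). After thinning it was seen in 76.0% (54.9% to 90.6%) and 30.0% (6.67% to 65.2%) of cells of library 1 and in 82.9% (66.4% to 93.4%) and 17.4% (4.95% to 38.8%) of library 2. The widely expressed *Mt2* had 18.9 and 48.3 UMIs per 10000 in library 1 and 32.4 and 76.0 in library 2, a log2 fold change of -1.31 (standard error 0.16, edgeR adjusted p = 0.00067). *Mt1* had 32.9 and 64.2 in library 1 and 48.2 and 91.3 in library 2, a log2 fold change of -0.97 (standard error 0.15, edgeR adjusted p = 0.00368). The 3 genes lie within chr8:94137204-94180327, with *Mt4* 33.6 kb from *Mt2*.

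Position was compared for all 80 called genes, each of which matched a RefSeq entry. Taking each called gene with the next called gene on its chromosome, 9 pairs lay less than 50 kb apart, found after the values were known. Beside those of chromosome 7 and chromosome 8, *Krt1* and *Krt77* on chromosome 15, *Calm4* and *Calm5* on chromosome 13 and *Ly6g6c* and *Ly6g6e* on chromosome 17 both rose. *Fcgbp* and 9530053A07Rik on chromosome 7 and *Ier3* and *Tubb5* on chromosome 17 both fell. Of these pairs, *Mt4* and *Mt2* were the pair with opposite directions. No such count over all genes tested is given, so 9 pairs cannot be read as many or few. Genes of such families resemble each other, and how the counting assigned reads shared between copies is not given in the sources used here.

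Calcium-binding S100 proteins and annexins did not move as a group, with 10 tested and a median log2 fold change of 0.03. *S100a6* was far lower in *Krt10*-high cells, with 0.288 against 14.5 UMIs per 10000 in library 1 and 2.22 against 18.4 in library 2. On the log2 scale the fold change was -3.68 (standard error 0.40, edgeR adjusted p = 0.000341). It was seen after thinning in 4.00% (0.101% to 20.4%) of 25 *Krt10*-high cells and in 6 of 10 (26.2% to 87.8%) *Krt10*-low cells of library 1 and in 31.4% (16.9% to 49.3%) and 78.3% (56.3% to 92.5%) of library 2. *S100a10* fell by 0.84 and *Anxa8* rose by 0.84 on the log2 scale, with edgeR adjusted p-values of 0.0301 and 0.0171. *S100a11*, with 1486 UMIs, had a log2 fold change of 0.07.

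Other genes among the largest falls encode proteins of several kinds. *Guca2a*, the peptide guanylin, had 0.192 and 3.44 UMIs per 10000 in library 1 and none and 1.67 in library 2 (log2 fold change -4.95, standard error 0.88, edgeR adjusted p = 0.00839). *Fcgbp*, a secreted mucin-like protein, had 0.288 and 11.7 in library 1 and 3.06 and 12.3 in library 2 (log2 fold change -2.87, edgeR adjusted p = 0.00589). *Ifitm3*, an interferon-inducible membrane protein, had 1.25 and 12.8 in library 1 and 4.15 and 16.4 in library 2 (log2 fold change -2.48, edgeR adjusted p = 0.000939). *Serpinh1*, a collagen chaperone, *Cbr2*, a carbonyl reductase, and *Smoc2*, a secreted matrix protein, had 29, 40 and 45 UMIs and log2 fold changes of -3.59, -3.58 and -2.69. *Ftl1*, the ferritin light chain, and *Fgfr2*, a receptor of fibroblast growth factors, had log2 fold changes of -2.51 and -2.27, with edgeR adjusted p-values of 0.00589 and 0.0229. *Ftl1* and *Fcgbp* fell more in library 1 (-3.44 and -4.68) than in library 2 (-1.85 and -1.98).

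Among the largest rises were also *Acer1*, a ceramidase, with 4.04 and 0.382 UMIs per 10000 in library 1 and 4.60 and 0.295 in library 2 (log2 fold change 3.68, standard error 0.51, edgeR adjusted p = 0.00149). *Elovl4*, which elongates very long fatty acids for barrier lipids, rose by 2.61 (standard error 0.60, edgeR adjusted p = 0.0323). It had 5.58 UMIs per 10000 in *Krt10*-high and none in *Krt10*-low cells of library 1, and 4.45 and 1.28 in library 2. These were the 2 of 12 tested lipid synthesis genes that passed, where 2.61% of all genes tested were higher. *Clic3*, a chloride channel protein, *Psapl1*, a relative of prosaposin, and *Gcat*, a mitochondrial enzyme of threonine breakdown, rose by 3.93, 3.82 and 3.59, each on 69 UMIs or fewer. Among 5 tested genes of prostaglandin and lipoxygenase enzymes, *Hpgds*, a prostaglandin D synthase, passed (2.34, standard error 0.45, edgeR adjusted p = 0.0141).

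**Figure D4:**
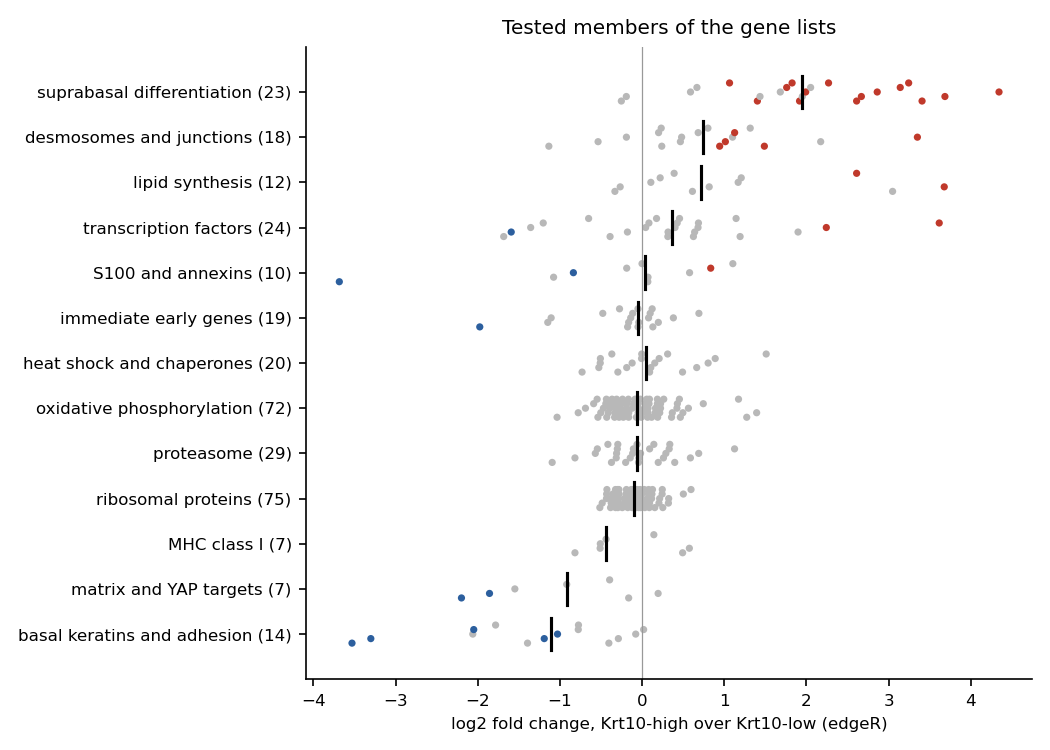
Log2 fold change of *Krt10*-high over *Krt10*-low traced cells for the tested members of 13 gene lists, each point 1 gene, with genes past the edgeR threshold in red (higher) and blue (lower), the list median as a black bar and the number tested in brackets. The suprabasal list lies to the right (median 1.95) and the basal list to the left (median -1.11), while ribosomal, oxidative phosphorylation and proteasome genes lie around 0. The lists were chosen with earlier results of these data known.

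Of 38 listed transcription factors of epidermal differentiation, 24 could be tested and 3 passed, 2 higher and 1 lower, where 4.44% of all genes tested passed. The median log2 fold change of the 24 was 0.36. *Grhl3*, a factor required for the skin barrier, had 1.15 UMIs per 10000 in *Krt10*-high and none in *Krt10*-low cells of library 1, and 1.98 and 0.197 in library 2 (log2 fold change 3.62, standard error 0.85, edgeR adjusted p = 0.0353, 54 UMIs). *Zfp750*, a factor of terminal differentiation, had 4.42 and 0.764 in library 1 and 2.97 and 0.689 in library 2 (log2 fold change 2.24, standard error 0.44, edgeR adjusted p = 0.0147). *Tsc22d1* fell by 1.59 (standard error 0.36, edgeR adjusted p = 0.0268). The most abundant of the list, *Klf4* and *Gata3*, had log2 fold changes of 0.32 and 0.31 with edgeR adjusted p-values of 0.566 and 0.629. *Trp63*, the master regulator of stratified epithelia, had 3.75 and 1.53 UMIs per 10000 in library 1 and 4.05 and 4.04 in library 2, so its difference was in 1 library. *Ovol1*, *Id1*, *Csnk2b* and *Bhlhe40* did not pass either, with log2 fold changes of 1.14, 0.63, -0.18 and -1.68. *Bhlhe40* passed in 6 of 14 alternatives and *Ovol1* in 1 of 15, and *Cebpb* had too few UMIs to test.

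In the Notch pathway, which promotes the exit from the basal layer, 4 of 25 genes could be tested and none passed in edgeR. Since 4.44% of all genes tested passed, 4 genes are too few to read this as a result. *Hes1*, a target gene, had 3.65 and 2.29 UMIs per 10000 in library 1 and 5.09 and 3.05 in library 2 (log2 fold change 0.68, edgeR adjusted p = 0.377). *Notch1* and *Jag1*, a receptor and a ligand, had log2 fold changes of 0.33 and -0.95. Immediate early genes, which respond to signals and to cell isolation, had a median log2 fold change of -0.05 over 19 tested. *Fos*, with 1489 UMIs, had 27.2 and 37.5 UMIs per 10000 in library 1 and 34.4 and 30.9 in library 2, and *Ier3* was the 1 gene of the list past the threshold (-1.98, edgeR adjusted p = 0.0421).

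Housekeeping groups gave no called gene, where 4.44% of all genes tested passed. For the smaller of these lists no call is near that share. None of 75 ribosomal protein genes, 72 nuclear genes of oxidative phosphorylation, 29 proteasome genes, 20 heat shock and chaperone genes and 7 MHC class I genes passed in edgeR, with medians of -0.09, -0.06, -0.06, 0.04 and -0.44. Mitochondrially encoded transcripts made up 5.91% and 5.07% of UMIs in *Krt10*-high and *Krt10*-low cells of library 1 and 5.46% and 5.94% in library 2.

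Cell cycle genes had lower summed levels in *Krt10*-high cells, by more in library 2 than in library 1. The summed level of the S phase list was 7.24 and 9.55 UMIs per 10000 in *Krt10*-high and *Krt10*-low cells of library 1 and 6.72 and 20.8 in library 2. That of the G2/M list was 31.7 and 33.4 in library 1 and 35.0 and 61.2 in library 2. Medians of single cells for the S phase list were 5.21 and 8.34 in library 1 and 6.05 and 11.2 in library 2. For the G2/M list the medians were 27.0 and 25.2 in library 1 and 30.0 and 25.5 in library 2. The median *Krt10*-high cell thus had no lower G2/M level in either library. Part of the level in library 2 came from single cells. The *Krt10*-low cell richest in G2/M transcripts had 252 per 10000, and without the richest cell of each class the level in library 2 was 32.7 and 42.5, and in library 1 29.9 and 29.1. *Mki67* or *Top2a*, markers of dividing cells, had UMIs at full depth in 1 of 25 and 1 of 10 cells of library 1, and in 4 of 35 (11.4%, 3.20% to 26.7%) *Krt10*-high and 7 of 23 (30.4%, 13.2% to 52.9%) *Krt10*-low cells of library 2. With 2 libraries an exact permutation test of these values cannot pass, and none was made. Of single genes, *Ccnd2*, the cyclin D2 that drives entry into the cycle, fell by 2.18 (standard error 0.50, edgeR adjusted p = 0.0302), and *Hmgb2*, a chromatin protein of dividing cells, fell by 1.47 (standard error 0.36, edgeR adjusted p = 0.0404). *Ccnd2* passed in 12 of the 16 alternatives that could test it and *Hmgb2* in 9 of 17. *Cdkn1a*, the cycle inhibitor p21, had a log2 fold change of 0.91 and did not pass.

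To see whether genes change below the cut or only above it, cells were placed into 4 bands of *Krt10*, from 0 to under 1, 1 to under 3, 3 to under 6 and 6 or more UMIs per 1000, with 9, 1, 10 and 15 cells in library 1 and 7, 16, 16 and 19 in library 2. The bands are a description, since *Krt10* orders them. *Krtdap* in library 2 went from 3.0 to 5.71, 75.6 and 101 UMIs per 10000, so the step lay at the cut, and in library 1 it was 26.5 in the third band and 96.3 in the fourth. *Krt14* in library 2 went from 244 to 192, 55.6 and 13.5, and in library 1 it was 213 in the lowest band and 13.6 and 4.81 in the upper ones. *Krt5* declined more evenly in library 2, from 157 to 142, 86.8 and 51.8. *S100a6* was already lower in the second band of library 2, at 14.0 against 26.2, and reached 3.71 and 0.994 above the cut. *Krt1* had 9.82, 11.7, 26.9 and 32.8 in library 2, and *Dsg1a* 3.82, 4.16, 8.41 and 16.3. The second band of library 1 holds 1 cell and cannot be read as a level.

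**Figure D5:**
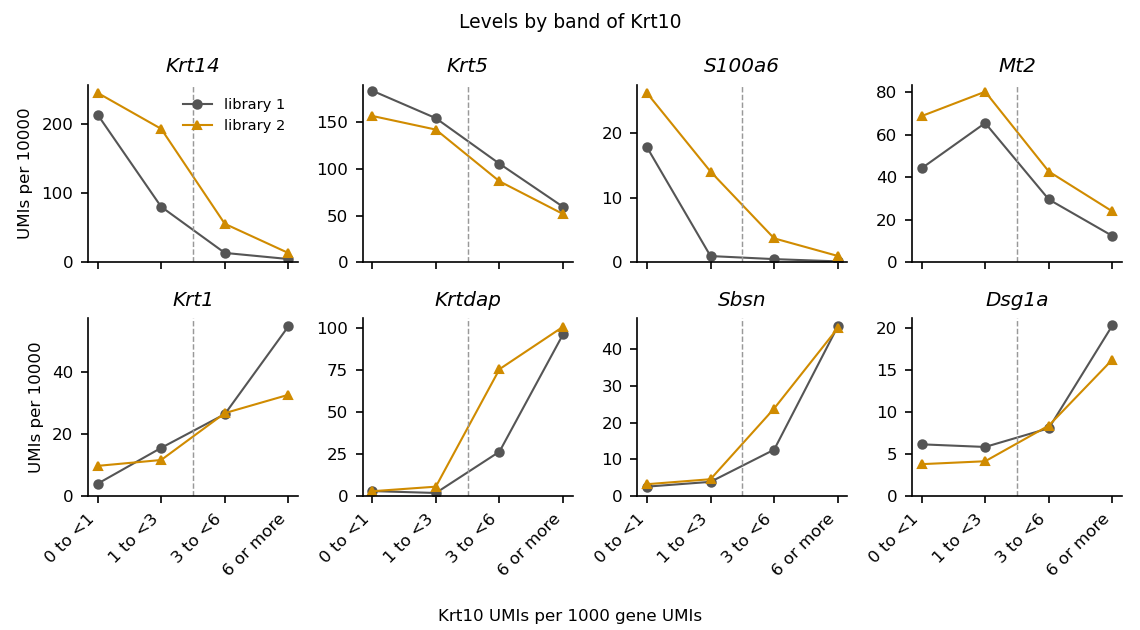
Level of 8 genes in UMIs per 10000 gene UMIs (vertical) over 4 bands of *Krt10* UMIs per 1000 gene UMIs (horizontal), in library 1 (circles) and library 2 (triangles), summed over the cells of a band, with the cut of 3 as a dashed line. The second band of library 1 holds 1 cell. In library 2 *Krtdap* and *Sbsn* rise sharply above the cut, and *Krt5* and *S100a6* decline over all 4 bands.

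With a cut at 10 per 1000, which leaves 6 *Krt10*-high cells in each library, *Krt14* kept its difference (log2 fold change -3.52) while that of *Krtdap* was 0.84 and did not pass (edgeR adjusted p = 0.0593). *Sbsn*, *Mt4*, *Calm5* and *Dmkn* had 0.79, 0.74, 0.22 and 0.07 at that cut and did not pass either. At that cut the cells from 3 to under 10 are counted as *Krt10*-low.

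Markers of other cell types were few and uneven. At least 3 of 9 markers of the infundibulum and upper hair follicle were present in 1 *Krt10*-high cell of library 1, and in 7 *Krt10*-high and 4 *Krt10*-low cells of library 2. The summed level of this list was 3.56 and 6.50 UMIs per 10000 in *Krt10*-high and *Krt10*-low cells of library 1 and 19.7 and 14.9 in library 2, where 1 *Krt10*-high cell held 248 of 398 UMIs. The 9 bulge markers had 43 UMIs in *Krt10*-low cells of library 2 and 8 or fewer in each other sum, with *Cd34* and *Lgr5* at 0. The 8 T cell markers had 65 UMIs in *Krt10*-high cells of library 2, 42 of them in 1 cell, and none in the other 3 sums. Fibroblast, endothelial, melanocyte and Merkel cell lists stayed at 0.297 UMIs per 10000 or below in every sum. An alternative fit left out every cell with at least 3 markers of 1 other type. This removed 2 and 0 cells of library 1 and 9 and 5 of library 2. No cell reached 3 bulge markers, and cells with fewer markers of a type stayed in, so their part in the called genes was not tested. All 80 genes passed in that fit, among 159 calls.

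Beside the non-traced cells, of which 18 and 45 were *Krt10*-low and only 2 and 3 *Krt10*-high, *Krt10*-low traced cells had *Krt14* at 187 and 211 UMIs per 10000 against 146 and 151 in *Krt10*-low non-traced cells of libraries 1 and 2. *Krtdap* was 2.87 and 4.73 in *Krt10*-low traced and 5.96 and 0.466 in *Krt10*-low non-traced cells, and *S100a6* was 14.5 and 18.4 against 4.74 and 8.33. These values are set side by side and were not tested.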

How the data were processed

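Single cells were captured on Fluidigm C1 chips and their 5-prime ends sequenced with STRT chemistry. The authors deposited raw UMI counts as whole numbers, 1 table of 96 wells for each of 4 libraries. Beside spike-in and reporter rows they hold 24378 gene rows, and 1207 of these carry a locus number after the symbol. Genome builds mm10 and GRCm38 are named in the submitters' processing notes, and the aligner and annotation are not given in the sources used here. The sample labels were followed for dose and age, which the study's methods state differently. The members and gene lists were chosen with earlier results of these data known.

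Wells with at least 2000 gene UMIs were kept and no doublet caller was run. Counts without *Krt10* were summed per class and library and tested with edgeR 4.0.16 in R 4.3.3 (TMM, filterByExpr, quasi-likelihood test, Benjamini-Hochberg over all genes tested, threshold 0.05), with the library as replicate block, since both classes of a library come from the same chip. The fitted biological coefficient of variation was 0.188. The same test was afterwards run on simulated counts that used this value, and its outcome is not reported here. Standard errors were derived from each fold change and the statistic of its test. Levels are UMIs per 10000 gene UMIs, without *Krt10* in the sums, except that single-cell values and cell cycle levels keep it in the total. Shares of cells carry 95% Clopper-Pearson intervals and were taken after thinning to 2000 UMIs with seed 1, but at full depth for the reporter and for *Mki67* or *Top2a*. A class without any UMI of a gene was given the limit of 3 counts. Log2 fold changes of single libraries were computed with a small count added to every gene. This shrinks them for sparse genes, so they are another measure than the edgeR values.

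Genes are named if they were among the 12 largest changes in each direction past the threshold (same sign in both libraries, at least 20 UMIs), if the study names them for these cells, or if they belong to a list, up to 6 past the threshold and the 3 most abundant. Of the genes this rule gives, 1 is not reported here. Others were chosen after their values were seen, and among them are *Skint6*, *Notch1*, *Jag1*, *Itgb1*, *Itgb4*, *Cdkn1a*, *Fth1*, *Fam25c*, *Tubb5* and the gene pairs found by position. Alternatives were minima of 1000 and 5000 UMIs per well, other *Krt10* cuts, thinned sums, deep or foreign cells left out, DESeq2 size factors, total counts, *Krt10* kept in, limma 3.58.1 with voom weights, the Wald test of DESeq2 1.42.0, other low-count filters, no block, and 1 library left out. Promoter windows and positions are RefSeq's for GRCm38.p6. Tom− tables served for side-by-side values only.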

Additional observations from a re-analysis of the deposited data

How the results depend on the processing

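The number of genes called was 80. It was within 1.5 times this number with a minimum of 1000 UMIs per well, a *Krt10* cut at 1 per 1000, cells from 1 to under 5 per 1000 left out, the deepest wells left out, DESeq2 size factors, no filter and no replicate block, which gave 69 calls, all of them among the 80. It was 19 with a minimum of 5000 UMIs per well (6 and 18 *Krt10*-high and 4 and 7 *Krt10*-low cells, 650 genes tested), 29 and 18 with the cut at 5 and 10 per 1000, 48 with thinned sums, 26 with total counts and no TMM, and 26 with the DESeq2 Wald test. It was 159 without cells carrying 3 markers of another type, 135 with *Krt10* left in, 135 with limma-voom (40.0% of them higher) and 137 with at least 20 UMIs over the sums (3643 genes tested). The causes of these shifts were not tested beyond the smaller or larger number of genes or cells in them. Without a filter the median log2 fold change over all genes was 0.35.

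Of the 80 genes, 50 could be tested under all 17 alternatives, and *Krt14*, *Krt5*, *S100a6*, Gm94 and Ccl27a_loc2 passed in each. *Krtdap*, *Sbsn*, *Dmkn*, *Mt4*, *Calm5* and *Ly6g6c* passed in all but the cut at 10, and *Krt1* in all but the cut at 5 and the DESeq2 Wald test. *Mt1* missed the threshold in 4 alternatives, without the block among them (-0.96, edgeR adjusted p = 0.0574). Other called genes held less well. *Ier3* passed in 7 of 14 alternatives that could test it, *Krt78* in 9 of 14, *Dsc3* in 10 of 17 and *Zfp750* in 11 of 17. Signs turned at the cut of 10 for *Ggct* (-0.53), *Krt78* (-0.20), *Pdzk1ip1* (-0.36), *Prdx5* (-0.068), *Pvrl4* (-0.26), *Ovol1* (-0.57) and *Trp63* (-0.22), the last 2 of which were not called. *Csnk2b*, also not called, was 0.34 with the cut at 1, 0.28 without cells from 1 to under 5 and 0.24 without cells carrying markers of another type.

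Leaving out a library leaves 1 *Krt10*-high and 1 *Krt10*-low sum with no residual degrees of freedom, so no count of calls can be given. All 80 genes kept their sign in each library alone, which the test that chose them on both libraries favours. The mean difference of the S phase list between classes was -8.17 UMIs per 10000, from -14.0 to -2.30 over single libraries and -17.0 with the cut at 1. That of the G2/M list was -13.9, from -26.1 to -1.67 over single libraries and -46.5 with the cut at 1. An alternative chosen after seeing the data, without the richest cell of each class, gave -5.85 and -4.50, and the G2/M difference was then 0.77 in library 1 and -9.77 in library 2.

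With 10 *Krt10*-low cells in library 1, many sparse genes did not pass the filter on low counts, and a share of cells carries a wide interval. The class cut comes from the same counts, and 12 cells lie between 2 and 4 per 1000.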

Other observations

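Of the 80 called genes, 38 belonged by row name to none of the gene lists, and those given here were chosen after their values were seen. Both ferritin chains, which store iron, fell. *Fth1*, the heavy chain, had 11.6 and 32.7 UMIs per 10000 in *Krt10*-high and *Krt10*-low cells of library 1 and 13.5 and 31.3 in library 2, a log2 fold change of -1.36 (standard error 0.18, edgeR adjusted p = 0.00127), beside the fall of *Ftl1*. Ccl27a_loc2, a row for the skin chemokine CCL27, had 33.5 and 89.8 in library 1 and 44.2 and 117 in library 2, a log2 fold change of -1.44 in each library. A gene with several rows can share reads between them, so this value is uncertain. *Cxcl14*, another epithelial chemokine, fell by 1.77 (standard error 0.38, edgeR adjusted p = 0.0231). Unlike the ferritin genes it belongs to a list, that of interleukin-1 and immune signalling genes. It was the 1 called gene of 4 tested there, too few to set against the 4.44% of all genes tested that passed. The list also names *Ccl27a*, but the row Ccl27a_loc2 does not match that name and was not counted in the list.

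Signalling and matrix genes outside the lists fell at *Wnt4* (-2.03, edgeR adjusted p = 0.0358), a secreted ligand, *Agrn* (-2.20, edgeR adjusted p = 0.0202), a basement membrane proteoglycan, and *Tgfbi* (-1.28, edgeR adjusted p = 0.0179), a matrix adhesion protein. *Calm2*, which encodes ordinary calmodulin, fell, with 5.19 and 9.94 UMIs per 10000 in *Krt10*-high and *Krt10*-low cells of library 1 and 9.14 and 20.0 in library 2 (log2 fold change -1.08, edgeR adjusted p = 0.0177), while the epidermal *Calm4* and *Calm5* rose. *Itm2b*, a widely expressed membrane protein, was among the most abundant rises, with 55.4 and 27.1 UMIs per 10000 in library 1 and 59.5 and 19.4 in library 2 (log2 fold change 1.31, standard error 0.18, edgeR adjusted p = 0.00167). Gm94, an uncharacterised gene model, had 9.04 and 1.72 in library 1 and 8.85 and 0.492 in library 2 (log2 fold change 3.20, standard error 0.43, edgeR adjusted p = 0.00139).

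*Alox12e*, an epidermal lipoxygenase, and *Krt79*, a keratin of the follicle opening, did not pass the filter on low counts. *Alox12e* had 97 of its 112 UMIs, and *Krt79* 101 of its 108, in *Krt10*-high cells of library 2.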
